A study of Mus musculus with 6 samples.

Results

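The Tet1, Tet2 and Tet3 genes, which encode the 3 TET methylcytosine dioxygenases, were examined for open chromatin in mouse embryonic stem cells. An accessible interval was placed at a Tet gene when its midpoint lay within 100 kb of an end of that gene and no end of another protein-coding gene was nearer. This placed 96 of 258093 listed intervals at the 3 genes, 41 of 91228 in 2iL, 28 of 88810 at 48 h and 27 of 78055 at 96 h. Of the 96, 40 lay at Tet1, 36 at Tet2 and 20 at Tet3. Merging overlapping intervals of the 3 lists gave 56 regions, 22 at Tet1, 22 at Tet2 and 12 at Tet3. Placing an interval at a gene does not show that it acts there.

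TET proteins are iron- and α-ketoglutarate-dependent enzymes that oxidise the methyl group of methylated cytosine to hydroxymethyl, formyl and carboxyl forms. The oxidised bases are lost by dilution at replication or are cut out by base excision repair, so TET activity opposes the DNA methyltransferases. Tet1 and Tet2 are known for their expression in mouse embryonic stem cells, and Tet3 for its role in the oocyte, the zygote and later in neural cells. TET1 and full-length TET3 carry a CXXC domain that binds unmethylated CpG. TET2 lacks one, and its former CXXC domain is encoded by the neighbouring gene Cxxc4, whose protein is known to lower TET2 levels.

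The study used ATAC-seq, which cuts and tags open DNA with a transposase, on 6 samples of E14, an established stem cell line from the mouse blastocyst. The cells grew on gelatin in serum-free N2B27 medium with 2iL, that is LIF, a self-renewal cytokine, with CHIR99021, which inhibits GSK3, and PD0325901, which inhibits MEK. Samples 2iL A and B were untreated. Samples 48h A and B and 96h A and B had been plated at single cell density and were collected after 48 h and 96 h in N2B27 without 2iL. The labels give all groups the same line and name no genetic change. The labels name 1 peak list for both samples of a group, so each group gave 1 value, groups could not be tested against each other, and p-values are absent. Neither how A and B were combined into a list nor whether they were separate cultures is stated in the labels.

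The 2iL, 48 h and 96 h lists covered 66.8, 64.5 and 55.6 Mb. The weakest interval of each had a −log10 p of 8.53, 7.06 and 3.87, so the shortest list, that of 96 h, reached down to the weakest intervals. A peak list does not state its depth, but the pileup of tags under a summit and its local background could be solved from the deposited fold enrichment and p. The most frequent background was 14.2 tags per position in 2iL, 15.18 at 48 h and 13.99 at 96 h. An end of 6, 7 and 7 of 7 pluripotency genes, among them Pou5f1 and Sox2, had an interval within 1 kb in the 2iL, 48 h and 96 h lists. The same was true of 2, 3 and 4 of 5 extraembryonic endoderm genes and 3, 3 and 4 of 5 fibroblast genes. The share of all genes with a listed end was not computed. By a narrower measure, 62.0%, 64.7% and 63.9% of promoter windows of protein-coding genes, described below, overlapped an interval in the 3 lists. An accessible gene end is not expression, so these counts do not name the cells. The part of such cells in the changes at the Tet genes was not tested.

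The promoters of the 3 genes are printed to show the sequence under the intervals that stayed listed throughout. Each runs 5′ to 3′ on the minus strand, from 250 bases before to 50 bases after the RefSeq start (RefSeq, GRCm38.p6, the assembly of mm10), and capitals mark every CpG, the dinucleotide in which mammalian cytosine is methylated. The windows are chr10:62887275-62887574 for Tet1, chr3:133544341-133544640 for Tet2 and chr6:83441629-83441928 for Tet3.
Tet1: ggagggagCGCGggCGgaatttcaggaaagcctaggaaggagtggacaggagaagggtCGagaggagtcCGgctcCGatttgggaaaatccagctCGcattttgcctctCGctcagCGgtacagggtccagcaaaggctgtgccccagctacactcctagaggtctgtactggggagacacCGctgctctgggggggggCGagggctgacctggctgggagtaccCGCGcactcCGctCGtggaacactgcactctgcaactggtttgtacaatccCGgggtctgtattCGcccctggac
Tet2: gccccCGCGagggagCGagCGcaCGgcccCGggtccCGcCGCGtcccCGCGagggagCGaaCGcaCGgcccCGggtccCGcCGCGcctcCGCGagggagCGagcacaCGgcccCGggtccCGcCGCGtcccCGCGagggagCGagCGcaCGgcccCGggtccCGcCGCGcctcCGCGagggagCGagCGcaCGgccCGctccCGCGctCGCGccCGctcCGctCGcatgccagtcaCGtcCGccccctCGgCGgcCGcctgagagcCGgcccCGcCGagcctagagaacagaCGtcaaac
Tet3: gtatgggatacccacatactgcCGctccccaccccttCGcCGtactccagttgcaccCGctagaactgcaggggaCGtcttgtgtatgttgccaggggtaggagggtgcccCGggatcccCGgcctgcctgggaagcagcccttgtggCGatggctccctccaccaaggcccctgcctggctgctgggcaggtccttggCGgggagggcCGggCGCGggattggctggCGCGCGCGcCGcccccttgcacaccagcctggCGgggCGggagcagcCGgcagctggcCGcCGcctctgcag

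The Tet2 promoter window is very rich in CpG. It holds 57 CpG in 300 bases and has a GC content of 81.3%, and only 38 of 21262 promoter windows of protein-coding genes, 0.179%, hold as many. The sequence also repeats itself: its longest repeated stretch is 43 bases long and occurs 2 times. The Tet3 window holds 22 CpG with a GC content of 71.3%, and 31.3% of windows hold at least as many. The Tet1 window holds 17 CpG with a GC content of 61.7%, and 42.7% hold at least as many. The median window has 13 CpG, with a middle range of 4 to 24, and a GC content of 56.3%.

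All 3 Tet promoter windows overlapped an interval in each list. Of all windows, 62.0% overlapped one in the 2iL list, 64.7% in that of 48 h and 63.9% in that of 96 h, and 59.7% did so in all 3 lists. Of the 9070 windows with at least 17 CpG, the number in Tet1, 95.6% did so. A promoter listed throughout, as at the Tet genes, is therefore what most windows with at least 17 CpG show.

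**Figure D1:**
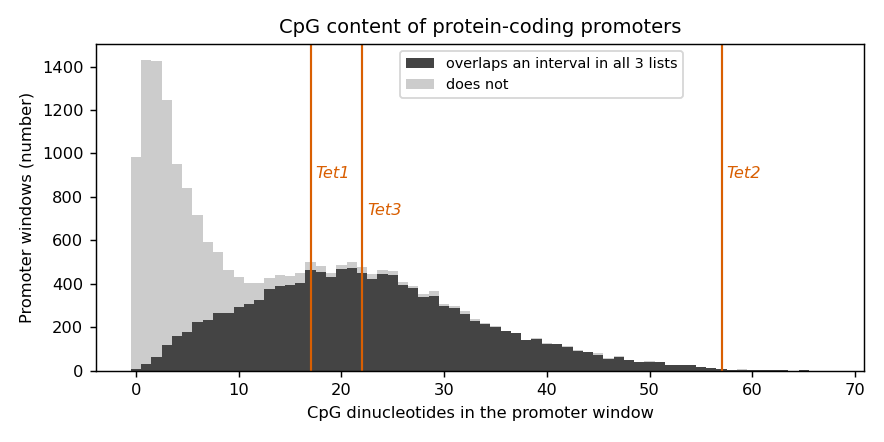
CpG dinucleotides per promoter window (x axis, number in 300 bases) for 21262 windows of protein-coding genes (y axis, number of windows). Dark bars count windows that overlapped an interval in all 3 lists and light bars the rest. Lines mark Tet1 at 17, Tet3 at 22 and Tet2 at 57 CpG, the last in the far tail.

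Short motifs were searched on both strands of the windows. The GC box GGGCGG, the site of SP and KLF factors, occurred 1 time in Tet1, 1 time in Tet2 and 2 times in Tet3, and in 46.2% of all windows. A CCAAT box, a site of the factor NF-Y, occurred 1 time in Tet3 and was not found in Tet1 or Tet2, and 38.2% of windows hold one. TATAAA (12.6% of windows), the E-box CACGTG (7.84%), the octamer ATGCAAAT (1.66%), the Esrrb half-site letters AAGGTCA (4.08%) and the Otx letters TAATCC (6.42%) were found in none of the 3. None of these motifs is part of another. A match is a run of letters and not a measured site.

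The number of intervals differed most between the lists at Tet2. Tet2 had 20 intervals in the 2iL list, 9 in that of 48 h and 7 in that of 96 h, and the length they covered was 12.18, 5.99 and 4.39 kb. Tet1 had 15, 13 and 12 intervals covering 10.95, 9.42 and 7.23 kb. Tet3 had 6, 6 and 8 intervals covering 5.71, 5.32 and 6.66 kb. Tet1 and Tet2 thus had fewer intervals at 96 h than in 2iL, and Tet3 had 2 more. The whole 96 h list was also shorter, and 47.6% of the 17409 genes with any interval in 2iL had fewer at 96 h. With lists of equal length the difference between 96 h and 2iL was 0 at Tet1, -10 at Tet2 and 4 at Tet3.

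Among 21896 protein-coding genes, 297 had at least the 20 intervals of Tet2 in 2iL, 2292 at least its 9 at 48 h and 2957 at least its 7 at 96 h. For Tet1 the corresponding numbers were 748, 957 and 836 genes, and for Tet3 4830, 4707 and 2296. The median gene with any interval had 3 in each list. In 2iL, Tet2 was thus among the genes with most intervals, and in the later lists many more genes had as many. These counts are not corrected for the room around a gene. The neighbouring genes lie 85.4 and 691 kb from Tet2, 12.2 and 33.2 kb from Tet1 and 2.24 and 23.0 kb from Tet3. Inside the gene alone, Tet2 had 10 intervals in 2iL, Tet1 9 and Tet3 6.

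**Figure D2:**
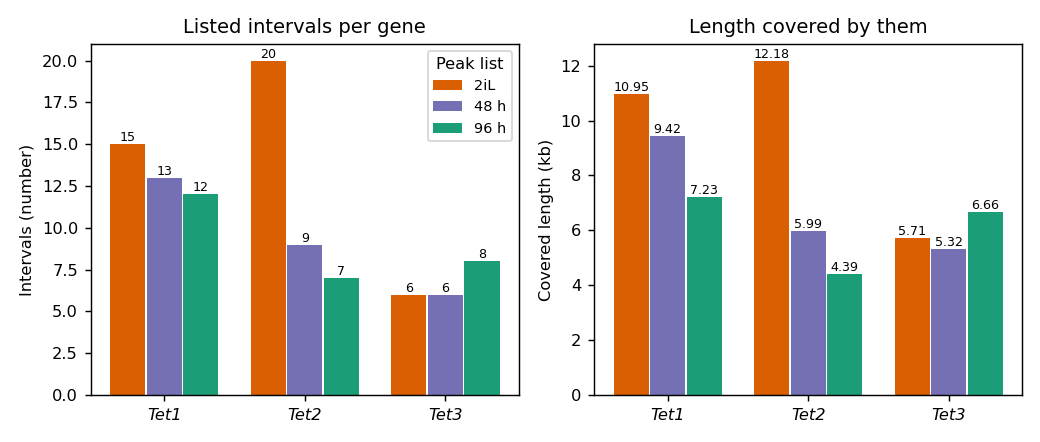
Intervals at Tet1, Tet2 and Tet3 (left, number) and the length they cover (right, kb) in the 2iL, 48 h and 96 h peak lists, 1 list for the 2 samples of a group and so without error bars. Tet2 had 20, 9 and 7 intervals, Tet1 15, 13 and 12, and Tet3 6, 6 and 8.

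The order of the genes by number of intervals also differed between the lists. Tet2 came before Tet1 in 2iL, with 20 against 15, and Tet1 came before Tet2 at 48 h, with 13 against 9. At 96 h Tet1 had 12, Tet3 8 and Tet2 7. Tet2 and Tet3 differed by 1 interval there, and with 1 list per group no spread can be set against these differences. Inside the genes alone, Tet2 had 10 intervals and Tet1 9 in 2iL, and Tet1 had 9 and Tet2 5 at 48 h. At 96 h, Tet1 had 7 inside, Tet3 7 and Tet2 3. The intervals outside the genes were counted over the unequal room given above.

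The first comparison, 48 h against 2iL, asks which intervals were lost or gained early after 2iL was withdrawn. An interval counted as lost when the later list held nothing that overlapped it by at least 1 bp, and as gained in the reverse case. At the 3 genes together, 24 of 41 intervals of the 2iL list were lost by 48 h, or 58.5% (42.1 to 73.7), against 32.9% of all intervals of that list. Brackets hold 95% confidence limits of the share (exact binomial, Clopper-Pearson). They take only counting error into account, as if neighbouring intervals were independent. The bracket lies above the share for all intervals, a comparison that does not take the fold of the intervals into account.

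Tet2 lost 13 of 20 by 48 h, 65.0% (40.8 to 84.6), Tet1 8 of 15, 53.3% (26.6 to 78.7), and Tet3 3 of 6. Only the bracket of Tet2 lies above 32.9%, and differences between the 3 genes were not tested. With only the stronger part of each list by −log10 p, the share for the 3 genes was 37.5%, against 30.8% of all intervals there. When that part of the 2iL list was set against the whole 48 h list, it was 31.25% (11.0 to 58.7), against 16.0% of all, a share within the bracket. Tet2 lost 4 of 8 intervals (15.7 to 84.3) in both of these settings. Its bracket includes both 30.8% and 16.0%, so by −log10 p no Tet2 excess among the stronger intervals was shown. By fold, intervals above the median of the 2iL list were lost by 48 h in 6 of 14 cases at the 3 genes, 42.9% (17.7 to 71.1), and in 5 of 9 at Tet2, 55.6% (21.2 to 86.3), against 19.4% of all such intervals. The Tet2 bracket by fold lies above that share, unlike its bracket by −log10 p, and the bracket of the 3 genes by fold includes it. Below that median lay 27 of the 41 intervals of the 3 genes in 2iL, and 18 were lost, 66.7% (46.0 to 83.5). At Tet2 8 of 11 were lost there, 72.7% (39.0 to 94.0), and both brackets include the 46.3% of all such intervals. Gains were 10 of 28 at the 3 genes together, 35.7%, against 31.1% of all intervals of the 48 h list. Tet1 gained 5 of 13, Tet2 2 of 9 and Tet3 3 of 6.

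The second comparison, 96 h against 48 h, covers the later part of the withdrawal. At the 3 genes 10 of 28 intervals of the 48 h list were lost, 35.7%, against 30.6% of all, and 8 of 27 at 96 h were gained, 29.6%, against 21.1% of all. Tet1 lost 6 of 13 and gained 4 of 12. Tet2 lost 2 of 9 and gained 0 of 7, a count of 0 that allows a share of up to 41.0% (exact 95% limit). Tet3 lost 2 of 6 and gained 4 of 8. The exact interval of each of these shares includes the share for all intervals.

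The comparison of 96 h against 2iL spans the whole withdrawal. Of the 41 intervals in 2iL 24 were lost, 58.5% (42.1 to 73.7), against 44.7% of all, and of the 27 at 96 h 9 were gained, 33.3%, against 35.5% of all. Tet2 lost 14 of 20, 70.0% (45.7 to 88.1), and gained 1 of 7, and its bracket lies just above 44.7%. With lists of equal length it lost 11 of 17, 64.7% (38.3 to 85.8), a bracket that includes the 39.8% of all intervals there. Tet1 lost 8 of 15 and gained 4 of 12, and Tet3 lost 2 of 6 and gained 4 of 8. Of the Tet2 losses, 13 had already occurred by 48 h.

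**Figure D3:**
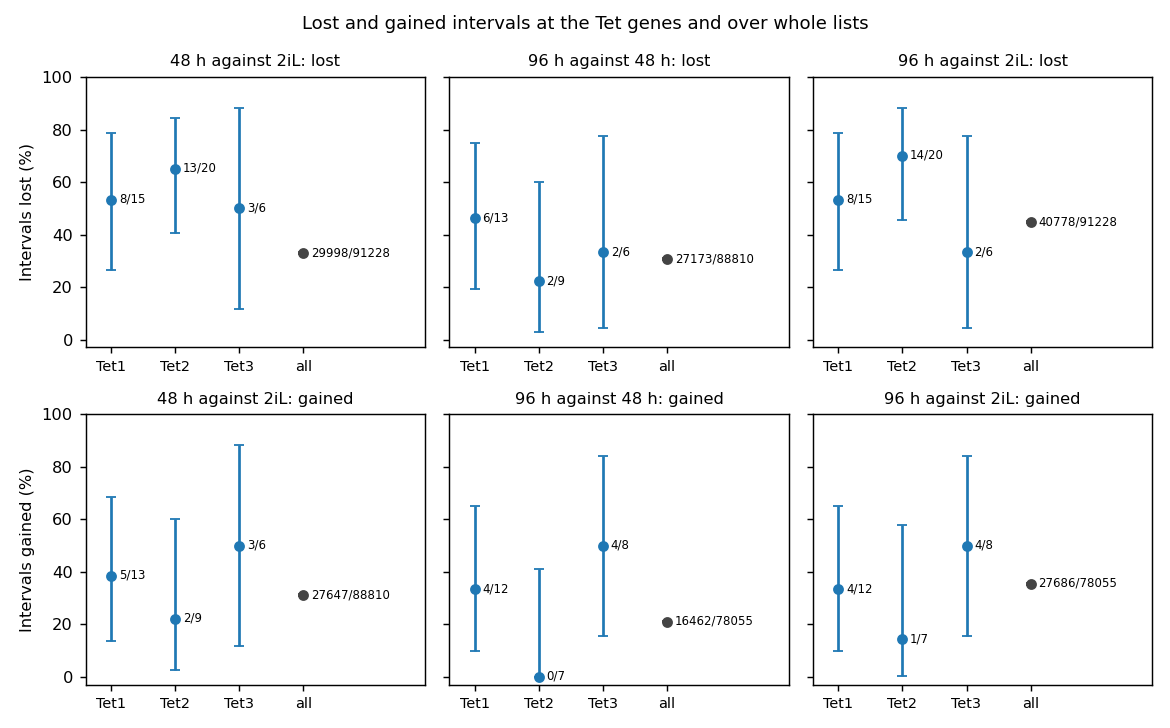
Share of intervals lost (top row) or gained (bottom row) in 48 h against 2iL, 96 h against 48 h and 96 h against 2iL (y axis, percent) at Tet1, Tet2 and Tet3 and over all intervals of the list. Bars are exact binomial 95% intervals and the labels give counts. Tet2 lost 13 of 20 by 48 h against 32.9% of all, and gained 0 of 7 after 48 h.

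The distance of intervals from gene ends bears on these shares. Over all genes, intervals within 1 kb of a gene end were lost in 10.9% of cases by 96 h, and those farther away but within 100 kb in 50.3%. At Tet2, 19 of the 20 intervals in 2iL lay over 1 kb from its ends, and 14 of these were lost by 96 h, 73.7% (48.8 to 90.9), a bracket that includes 50.3%. By 48 h 13 of the 19 were lost, 68.4% (43.4 to 87.4), against 36.6% of all such intervals, and this bracket lies above it. For the 3 genes together the share by 48 h was 24 of 37, 64.9% (47.5 to 79.8).

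Single genes vary widely in the share they lose. Among 1986 genes with at least 10 intervals in 2iL, the median gene lost 36.4% by 48 h and 50% by 96 h. The share lost by Tet2 was reached or passed by 79 genes, 3.98%, at 48 h and by 247 genes, 12.4%, at 96 h. That of Tet1 was reached by 306 genes, 15.4%, and by 916 genes, 46.1%. The number of intervals at Tet2 at 96 h was 0.35 of that in 2iL, against a median of 0.70, and 128 genes had a ratio as low. At 48 h it was 0.45, against a median of 0.833, and 86 genes had a ratio as low. These places describe the lists and are not tests.

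The regions of each gene divide by the lists they occur in. At Tet2, 13 of 22 regions, 59.1%, were in the 2iL list only, against 20.8% of all 131410 regions, and 6 were in all 3 lists. Of the remaining 3, 1 was shared by 2iL and 48 h, 1 was in 48 h only and 1 was shared by 48 h and 96 h. At Tet1 the 22 regions were spread over all 7 classes: 6 in 2iL only, 2 in 2iL and 48 h, 5 in all 3, 3 in 48 h only, 2 in 48 h and 96 h, 2 in 96 h only, and 2 in 2iL and 96 h. At Tet3, 2 of 12 were in 2iL only, 3 in all 3, 2 in 48 h only, 1 in 48 h and 96 h, 3 in 96 h only and 1 in 2iL and 96 h. Of all regions, 35.9% were in all 3 lists, against 5 of 22, 6 of 22 and 3 of 12 at Tet1, Tet2 and Tet3.

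**Figure D4:**
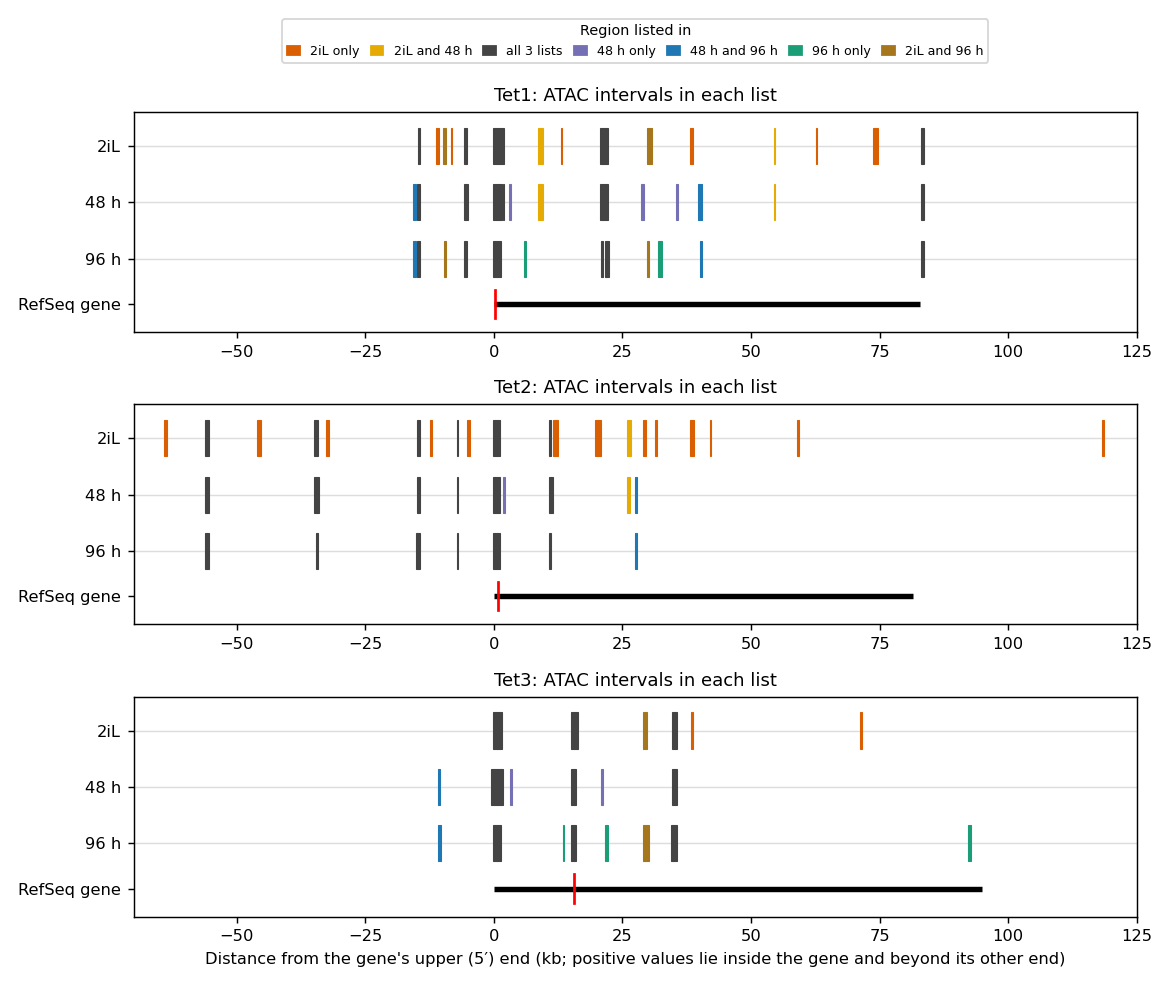
Intervals at Tet1, Tet2 and Tet3 in the 2iL, 48 h and 96 h lists by distance from the gene's upper end (x axis, kb), which is the 5′ side of all 3 genes. Colours give the lists in which the merged region occurs, the black bar is the RefSeq gene and the red tick its annotated start. At Tet2 orange intervals, in 2iL only, lie on both sides of the 5′ end and are missing from the 48 h and 96 h rows.

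Tet1 lies on chromosome 10 (62804570 to 62887469, minus strand, 82.9 kb), between Ccar1 at 12.2 kb and Slc25a16 at 33.2 kb. Exons and introns were not told apart, because the gene table used gives only the ends of a gene. The region with the highest pileup at Tet1 was not the promoter but one 21.4 kb inside the gene, at chr10:62865138-62866912. It also overlaps the annotated lncRNA Gm51805, as do all Tet1 regions from there to the farthest above the upper end, the promoter region among them. The pileup of this inner region was 778 tags in the 2iL list, 1063 in that of 48 h and 1468 in that of 96 h. The fold enrichments were 14.25, 13.92 and 20.85. It was 1 interval in 2iL and at 48 h and 2 intervals at 96 h, and the covered length was 1731, 1719 and 1230 bp.

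The promoter region of Tet1, chr10:62885496-62887700, was in all 3 lists. Its pileup was 489, 722 and 1047 tags in 2iL, 48 h and 96 h, its fold 6.29, 7.52 and 10.03, and it covered 2121, 2118 and 1667 bp. The strongest summit lay 126 and 124 bp before the RefSeq start in 2iL and at 48 h and 121 bp after it at 96 h. Fold and pileup come from lists made separately, so they are set side by side here and no change is claimed from them.

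Above the 5′ end, Tet1 had a region listed at the later times only. At chr10:62902628-62903239, 15.5 kb above the upper end, the fold was 15.31 with a pileup of 346 tags at 96 h, and 11.53 with 537 tags at 48 h. Next to it, at chr10:62901817-62902471, a weaker region was in all 3 lists, with folds of 3.70, 4.58 and 4.43. Its pileups were 284, 228 and 102 tags in 2iL, 48 h and 96 h. A second region in all 3 lists lay 5.47 kb above the upper end, with folds of 7.24, 9.56 and 10.07. There the pileup was lower in each later list, 471, 406 and 150 tags, and so was the local background, 64.2, 41.6 and 14.0 tags. Another lay 0.408 kb below the lower, 3′ end of the gene, with folds of 9.80, 7.55 and 8.94.

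The 6 regions of Tet1 in the 2iL list only were low in fold, from 3.38 to 6.67. The one with the highest pileup, 521 tags, was at chr10:62898031-62898662, 10.9 kb above the upper end, over a local background of 82.0 tags. Its −log10 p of 230.1 stood at percentile 73.6 of the 2iL list, so by that measure it was a strong interval. Inside the gene, 96 h brought a region at chr10:62854870-62855486 with a fold of 11.32 and 170 tags, and a weaker one with a fold of 4.84. Another region inside, chr10:62847025-62847722, was listed at 96 h with a fold of 4.94 and at 48 h with 7.02. The 3 regions in the 48 h list only had folds from 3.56 to 4.18. Regions inside the gene at 9.07 and 54.5 kb from the upper end were shared by 2iL and 48 h, and those at 9.54 kb above the upper end and 30.3 kb inside were in 2iL and 96 h but not at 48 h.

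Tet2 lies on chromosome 3 (133463677 to 133545136, minus strand, 81.46 kb), with Ppa2 85.4 kb below it and Cxxc4 691 kb above it. Its promoter region, chr3:133543867-133545344, was in all 3 lists with folds of 12.47, 11.19 and 12.83 and pileups of 703, 519 and 643 tags in 2iL, 48 h and 96 h. The strongest summit lay 26, 31 and 27 bp after the RefSeq start, a spread of 5 bp. It covered 1287, 1457 and 1394 bp, while 13 of the 21 other regions of the gene were in 2iL only.

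The 13 regions of Tet2 in the 2iL list only included strong ones. Inside the gene, chr3:133506140-133506922, 38.6 kb from the upper end, had a fold of 14.52 and 310 tags. At chr3:133524350-133525557, 20.2 kb inside, the fold was 14.21 with 463 tags over 1208 bp. These stood at percentiles 85.1 and 84.1 of the fold in the 2iL list. Above the gene, chr3:133549854-133550316, 4.95 kb from the upper end, had a fold of 12.26 and 292 tags. All 3 were absent from the 48 h and 96 h lists.

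Farther above the 5′ end, 2iL-only regions lay at chr3:133590431-133591259, 45.7 kb away, with a fold of 10.53 and 191 tags, and at chr3:133608757-133609335, 63.9 kb away, with a fold of 9.80 and 148 tags. The other 8 regions in the 2iL list only had folds from 4.27 to 7.26 and pileups from 86 to 160 tags. They lay 2 above the upper end, 5 inside the gene and 1 below the lower end, 36.9 kb from it. Lost regions were thus found on both sides of the promoter. By 96 h 8 of the 10 intervals inside the gene and 6 of the 10 outside it were lost.

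The 6 Tet2 regions in all 3 lists formed a series from inside the gene to 55.8 kb above it. At chr3:133533706-133534502, 11.0 kb inside, the fold was 12.80, 18.30 and 8.14 and the pileup 461, 477 and 121 tags in 2iL, 48 h and 96 h. Its direct neighbour on the 3′ side, chr3:133532723-133533633, was in 2iL only, with a fold of 4.27. At chr3:133579058-133580013, 34.4 kb above the upper end and over the annotated pseudogene Gm49316, the fold was 12.85, 20.52 and 6.47 and the pileup 287, 331 and 96 tags.

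The farthest, chr3:133600498-133601314, had folds of 11.18, 14.47 and 13.47 and pileups of 169, 233 and 201 tags. The remaining 2, at 7.04 and 14.7 kb above the upper end, had folds of 6.99, 7.97 and 6.94, and of 7.76, 9.09 and 6.07. Tet2 had 1 region that was absent in 2iL and listed at both later times, chr3:133517292-133517737, 27.6 kb inside, with folds of 6.34 at 96 h and 6.18 at 48 h. A region 26.2 kb inside was shared with 48 h only, and 1 at 1.94 kb inside, with a fold of 2.93, was listed at 48 h alone.

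By fold, the lost intervals of Tet1 were all in the lower part of the 2iL list, and those of Tet2 lay in both parts. The 14 intervals of Tet2 lost by 96 h had a median fold of 6.59, from 4.27 to 14.52, and the 6 kept had a median of 11.83, from 6.99 to 12.85. Above the median fold of the 2iL list, Tet2 lost 5 of 9, 55.6% (21.2 to 86.3), against 30.8% of all such intervals. Below it, Tet2 lost 9 of 11, 81.8% (48.2 to 97.7), against 58.6%. Both brackets are wide, and each includes the share for all intervals. At Tet1 all 8 lost intervals were below the median fold, where it lost 8 of 13, and 0 of 2 above it were lost. The 7 kept Tet1 intervals had folds from 2.89 to 14.25, so intervals of low fold were also kept. By −log10 p, 5 Tet1 intervals were in the stronger part of the 2iL list, and 1 of these was not in the 96 h list.

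**Figure D5:**
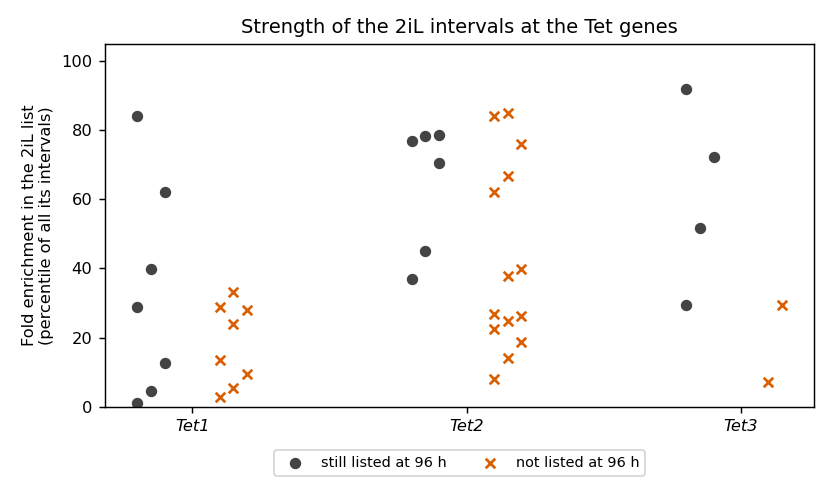
Fold enrichment of the 2iL intervals at Tet1, Tet2 and Tet3 as a percentile of all intervals of the 2iL list (y axis), with those not listed at 96 h as crosses and those still listed as circles. The lost Tet2 intervals reach percentile 85.1, and the lost Tet1 intervals reach 33.3.

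Tet3 lies on chromosome 6 (83362373 to 83457208, minus strand, 94.8 kb), with Bola3 2.24 kb and Dguok 23.0 kb from its ends. The RefSeq start used for its promoter lies 15.5 kb inside the upper end of the gene, so its annotation reaches beyond that start on the 5′ side. The region at the RefSeq start, chr6:83440890-83442247, overlaps the lncRNA B230319C09Rik and had the highest pileups of any region at the 3 genes, 1104, 1940 and 2243 tags in 2iL, 48 h and 96 h. Its folds were 17.12, 16.44 and 15.60, and its strongest summit lay 16 bp after the start in 2iL and 11 and 15 bp before it at 48 h and 96 h.

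The region at the upper end of Tet3, chr6:83455402-83457751, was also in all 3 lists. Its folds were 6.33, 6.34 and 8.90, its pileups 302, 529 and 761 tags, and it covered 1870, 2350 and 1607 bp. The remaining region in all lists, chr6:83421570-83422671, 35.1 kb inside, had folds of 11.54, 12.21 and 6.43. The RefSeq start and the upper end of Tet3 were thus both accessible in every list.

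Regions new at Tet3 lay inside the gene and above it. At chr6:83467566-83468075, 10.6 kb above the upper end, the fold was 12.14 with 181 tags at 96 h and 5.69 with 91 tags at 48 h, and the 2iL list had none. At chr6:83364438-83365051, 2.37 kb from the lower, 3′ end, the fold was 8.30 with 236 tags at 96 h only. The other 2 regions in the 96 h list only had folds of 5.83 and 2.69, and the weaker of them lay beside the promoter over a local background of 140.4 tags. The region at chr6:83427062-83428165, 29.6 kb inside, was listed at 96 h with a fold of 9.76 and 422 tags and in 2iL with 8.49 and 141 tags, but not at 48 h. The 2 regions in 2iL only had folds of 6.31 and 4.14, and the 2 in 48 h only had 4.16 and 3.58.

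The 14 regions of the 3 genes in all lists were compared for width and summit position. At 96 h 11 of the 14 covered fewer bases than in 2iL, against 47.3% of 47176 such regions over the genome. Any difference was counted, and among the 11 were changes of only -3, -3 and -14 bp at Tet2 and -5 bp at Tet3. No limits were computed for the 11 of 14. The median change was -17.5 bp at the 14 regions and 4 bp over all. The changes ran from -501 bp, at the inner region of Tet1 with the highest pileup, to 268 bp, at the Tet1 region 14.7 kb above the upper end. Other large ones were -454 bp at the Tet1 promoter, -317 and -263 bp at the RefSeq start and upper end of Tet3, and -302 bp at the Tet2 region over Gm49316. The strongest summits of the 3 lists lay within 50 bp of each other in 10 of the 14, 71.4%, against 80.0% of all such regions.

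Genes whose regions were spread over the 7 classes most like those of a Tet gene were found by the Euclidean distance between class shares, among 3628 genes with at least 10 regions. For Tet1 these were Nudt3, Wwp2, Stxbp5, Bsn and Tnrc6b, at distances of 0.0643 to 0.0812, against a median of 0.277. For Tet2 they were Slc35b4, Adam19, Iqgap2, Lipc and Bhlhe40, at 0.0888 to 0.104, against a median of 0.468. For Tet3 they were Rtn1, Notch2, Epb41, Sgsm3 and Lamb1, at 0.0577 to 0.0966, against a median of 0.333. Among themselves Tet1 and Tet3 were 0.215 apart, Tet1 and Tet2 0.364, and Tet2 and Tet3 0.518. The likeness is over 3 lists only.

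The other genes of the pathway were described with the same measures. The 6 genes of DNA methylation writing and maintenance had 32, 43 and 35 intervals in 2iL, 48 h and 96 h, and by 96 h they had lost 9 of 32, 28.1% (13.7 to 46.7), and gained 10 of 35, 28.6% (14.6 to 46.3). Both brackets include the shares over all intervals, 44.7% lost and 35.5% gained. Dnmt3a, a de novo methyltransferase, had 12, 19 and 15 intervals, and Dnmt3b, the other one, 9, 12 and 10. Dnmt1, which maintains methylation at replication, had 7, 3 and 3. Uhrf1, which brings Dnmt1 to replicated DNA, had 1, 2 and 3. By 96 h 4 of the 6 genes had more intervals than in 2iL, 1 had fewer and 1 as many. Of the 17409 genes with any interval in 2iL, 47.6% had fewer at 96 h, and the share with more was not computed.

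The 13 genes of excision repair of oxidised or deaminated cytosine had 78, 79 and 63 intervals and lost 34 of 78 by 96 h, 43.6% (32.4 to 55.3), against 44.7% of all intervals, and gained 17 of 63, 27.0% (16.6 to 39.7), against 35.5%. Tdg, the glycosylase that removes formyl- and carboxylcytosine, had 5, 3 and 2. Gadd45a, a stress gene linked to demethylation, had 13, 9 and 4, and Smug1, a uracil glycosylase, 13, 16 and 14. By 96 h 5 of the 13 genes had fewer intervals than in 2iL, against 47.6% of the 17409 genes with any interval in 2iL. Of the rest, 2 had more and 6 had as many.

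The 12 partners and regulators of TET proteins had 112, 107 and 91 intervals and lost 49 of 112 by 96 h, 43.8% (34.4 to 53.4), against 44.7% of all intervals, and gained 28 of 91, 30.8% (21.5 to 41.3), against 35.5%. Ogt, the glycosyltransferase that binds TET proteins, had 5, 2 and 2 intervals. Idh1, which makes the co-substrate α-ketoglutarate, had 4, 1 and 1, and Prdm14, a regulator that recruits TET proteins in naive cells, 15, 10 and 7. Cxxc4, the neighbour of Tet2, had 3, 6 and 9, with 0 of 3 lost and 6 of 9 gained by 96 h, against 44.7% lost and 35.5% gained over all intervals. These counts are too small to set Cxxc4 apart from other genes.

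The 10 genes of naive pluripotency had 161, 113 and 74 intervals and lost 101 of 161 by 96 h, 62.7% (54.8 to 70.2), against 44.7% of all intervals, and gained 14 of 74, 18.9% (10.7 to 29.7), against 35.5%. All 10 had fewer intervals at 96 h than in 2iL, as did 47.6% of the 17409 genes with any interval in 2iL. Tfcp2l1, a factor of the naive network, had 16, 6 and 7, and Klf4, a LIF target, 15, 7 and 7. The Tet2 share by 96 h, 70.0%, lies inside the bracket of this list, just under its upper limit. By 48 h the list had lost 75 of 161, 46.6% (38.7 to 54.6), and the Tet2 share then, 65.0%, lies above that bracket. These brackets do not measure the spread between genes, so they cannot tell whether Tet2 is like the genes of the list. The lists were chosen with earlier results of these data known, so their directions are not independent evidence.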

How the data were processed

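ATAC-seq of 6 E14 samples had been reduced by the authors to 3 deposited peak lists, 1 for both samples of a group, and 0 columns of per-sample values were left unused. The tools listed are BWA, SAMtools, Picard and bcl2fastq 2.20.0.422, with the build mm10, per the submitters' processing notes. For the peak caller, its settings, any transposase shift and duplicate removal, the entry is: not given in the sources used here. Per the labels' protocols, 100000 cells were used per sample, with 10 PCR cycles and fragments of 200 to 700 bp.

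Each line of a deposited list holds an interval, a score, a fold enrichment (a linear ratio), and a −log10 p for a summit. The score was not used. Fold and p are the authors' values and describe or rank intervals within their own list only. Where an interval had several summits, the one with the highest −log10 p stood for it. Pileup k and background b were solved from fold = (k + 1) / (b + 1) and a Poisson tail. This form is not stated in the files, and it gave whole tags, within 0.05, for 100% of the intervals with −log10 p under 290.

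Genes and promoters came from RefSeq tables of GRCm38.p6, and an interval was assigned by the nearest gene end, up to 100 kb from the midpoint. The counting, gene assignment and pileup steps were tested on simulated data. Python 3.11.15, numpy 2.4.6, pandas 2.3.3 and scipy 1.17.1 were used. Every region at the members was eligible to be named, any gene of the pathway lists could be named with its counts, and the 5 genes closest in class shares were named for each member. The members and lists were chosen with earlier results of these data known. The alternatives tried were stronger or equally long lists, other gene assignments and stricter overlaps. The design gives 1 value per group, so there was no test between groups.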

Additional observations from a re-analysis of the deposited data

How the results depend on the processing

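Across 8 alternatives, 231 of 267 values stayed within the limits set for a moved value. Counts and shares cannot change sign, so only the differences in number between 96 h and 2iL could reverse, and none did. Assignment by gene body or strongest summit and the overlap of 50% returned the reported values, so they add to the 231 without testing them. All moved values came from the stronger or equally long lists. The share of Tet2 intervals lost was 50% to 75% for 96 h against 2iL and 50% to 66.7% for 48 h against 2iL. With the stronger part of each list by −log10 p, the 3 genes had 16, 12 and 10 intervals in 2iL, 48 h and 96 h, fewer by construction. They then lost 37.5% and gained 16.7% in 48 h against 2iL, and Tet2 gained 0% in 48 h and in 96 h against 2iL. When that part was set against the whole other list, the 3 genes lost 31.25% and gained 8.33% in 48 h against 2iL, lost 8.33% in 96 h against 48 h, and lost 31.25% in 96 h against 2iL. Tet2 there gained 0% in 48 h and in 96 h against 2iL, and lost 0% in 96 h against 48 h, as it did with lists of equal length, but 50% (2 of 4) with the stronger part of each list, against 22.2% as reported. With lists of equal length, Tet1 had as many intervals at 96 h as in 2iL, a difference of 0. Over all intervals the share lost in 96 h against 2iL was 26.95% to 45.3% over these settings, and in 48 h against 2iL 16.0% to 33.3%.

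No paired analysis was possible because each group has 1 list for both samples, and leaving out a replicate was not possible either. How the samples were combined is not stated, so what a listing or a pileup says of each sample is unknown, and the lists hide any difference between samples A and B. Counts of 6 to 20 intervals per gene give wide exact intervals, and Tet3 has the fewest.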

Other observations

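Between Tet2 and Cxxc4 lies a stretch of 491 kb, chr3:133645137-134136143, that is over 100 kb from both genes and so was placed at neither. It held 3 intervals in 2iL, 4 at 48 h and 3 at 96 h. Of the 3 at 96 h 2 were not in the 2iL list, and of the 3 in 2iL 2 were not in the 96 h list. The highest fold was 23.3 in 2iL, 17.4 at 48 h and 22.9 at 96 h.

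Above percentile 75 of fold in the 2iL list, 22.1% of all intervals were lost by 96 h. Of the 6 Tet2 intervals there, 3 were lost, the ones at 38.6 and 20.2 kb inside the gene and at 4.95 kb above it. These are the 3 regions already described, no limits were computed, and 6 intervals are too few to set Tet2 apart from that share.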
